A study of Mus musculus with 62 samples.

Results

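The 10 genes described here encode regulators of oxidative metabolism: the coactivators Ppargc1a and Ppargc1b, the nuclear receptors Esrra, Esrrb, Esrrg, Ppara and Ppard, the corepressor Nrip1, and the mitochondrial regulators Tfam and Nrf1. They were taken by symbol, and all 10 were listed in each of the 4 expression tables of the study, among 29239 symbols in the chow table, 21936 in the stress table, 21039 in the AAV table and 17896 in the C2C12 table. Each was read against Myh7, the slow myosin heavy chain, and Tnni1, the slow skeletal troponin I, in the same libraries. Bulk RNA-seq was performed on 62 libraries to compare muscle with and without ChREBP, the carbohydrate response element-binding protein encoded by Mlxipl.

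ChMKO mice carried the floxed ChREBP gene and a Cre driven by the muscle creatine kinase promoter (Mck-cre), and floxed littermates without the Cre (F/F) served as controls. Mice were male and 8 to 10 weeks old at the start. The chow experiment held gastrocnemius (GC), a mostly fast muscle, and soleus (SOL), a slow muscle, from 5 F/F and 5 ChMKO mice. The stress experiment held GC of 4 mice in each of 6 groups, both genotypes under normoxia (Norm), in a chamber simulating 5500 m for 14 days (Hypo), or on a diet with 68% of calories from fructose for 3 months (HFrD). Norm libraries were the controls of both stresses, so those comparisons shared their controls. The sources used here do not say how long the Norm mice had been housed relative to the diet. The AAV experiment held GC of 5 C57BL/6J mice injected with a control vector (AAV-GFP, named AAV-CON in the labels) and 5 injected with AAV9 carrying mouse ChREBP under the CMV promoter (AAV-ChREBP), taken 14 days later. The C2C12 experiment held a mouse myoblast line at day 7 of differentiation, 4 wells of cells overexpressing ChREBP (Ch-OE) and 4 of controls (CON). Each of these was 1 stable line, so that p-values there measure the spread between wells.

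PGC-1 coactivators have no DNA-binding domain of their own and act through partners such as the estrogen-related receptors (ERRs), the PPARs and NRF1. ERRs bind genes of the respiratory chain and the citric acid cycle, PPARs bind genes of fatty acid use, and both classes are opposed by the corepressor RIP140, encoded by Nrip1. Slow fibers are rich in mitochondria, and forced expression of several of these regulators in mouse muscle is known to raise oxidative genes. In bulk muscle, fewer cells of a type and less RNA per cell cannot be told apart.

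In the GRCm38 annotation of the chow table, Ppargc1a lay at chr5:51454249-52116058, Esrra at chr19:6910977-6922048, Esrrb at chr12:86361117-86521628 and Esrrg at chr1:187608791-188214884. Ppara lay at chr15:85734628-85806851, Ppard at chr17:28232754-28301469, Nrip1 at chr16:76287403-76374004, Tfam at chr10:71225477-71238330 and Nrf1 at chr6:30047988-30153458. Promoter windows of 250 bases before an annotated start were read from RefSeq (GRCm38.p6) for 9 of the 10 genes, 15 windows in all. The 4 windows below are shown because their genes gave the widest differences between muscles or stress groups. Capitals mark the letters matched on either strand, which were TGACG, a cyclic AMP response element half-site, in Ppargc1a, Esrrb and Ppara, TATTTATA, a MEF2 core, in Esrrg, and GCGCANGCG, an NRF1 motif that matched at overlapping positions on both strands, also in Ppara.
Ppargc1a (chr5:51567726-51567975, minus strand): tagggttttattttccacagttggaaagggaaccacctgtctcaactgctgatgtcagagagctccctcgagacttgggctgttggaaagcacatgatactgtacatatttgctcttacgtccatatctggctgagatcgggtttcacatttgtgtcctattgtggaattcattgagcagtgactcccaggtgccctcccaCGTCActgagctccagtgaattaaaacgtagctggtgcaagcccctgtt
Esrrb (chr12:86360867-86361116, plus strand): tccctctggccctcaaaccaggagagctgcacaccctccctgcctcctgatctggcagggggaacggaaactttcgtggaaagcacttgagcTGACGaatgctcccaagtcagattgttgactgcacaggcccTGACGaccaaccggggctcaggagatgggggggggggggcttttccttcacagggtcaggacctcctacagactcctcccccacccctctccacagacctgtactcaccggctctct
Esrrg (chr1:187608756-187609005, plus strand): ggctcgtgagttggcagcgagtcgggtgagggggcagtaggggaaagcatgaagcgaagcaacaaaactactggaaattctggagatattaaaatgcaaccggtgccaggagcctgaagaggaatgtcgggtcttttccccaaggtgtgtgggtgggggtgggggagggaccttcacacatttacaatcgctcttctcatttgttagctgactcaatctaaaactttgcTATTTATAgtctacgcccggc
Ppara (chr15:85735526-85735775, plus strand): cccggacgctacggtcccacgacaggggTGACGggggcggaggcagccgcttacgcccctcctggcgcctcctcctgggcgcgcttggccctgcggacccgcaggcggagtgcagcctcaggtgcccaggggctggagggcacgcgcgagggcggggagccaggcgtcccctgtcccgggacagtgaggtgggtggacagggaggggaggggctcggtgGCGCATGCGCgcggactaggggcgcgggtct

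The starts read for Ppargc1a, Esrrg and Ppara are annotated starts inside the spans above, downstream of the outer end. The half-site stood at -49 to -45 from the start of Ppargc1a, read as CGTCA, and the MEF2 core at -21 to -14 from that of Esrrg. Esrrb held the half-site at -158 to -154 and at -117 to -113, and Ppara at -222 to -218. Over 32851 windows of the same length, TGACG was present in 17.8%, TATTTATA in 1.56% and GCGCANGCG in 5.16%. The ERR half-site AAGGTCA, present in 4.08% of all windows, and the E-box CACGTG, present in 6.02%, were in none of the 15 windows of these genes. Esrra held the NRF1 motif at -141 to -133, Tfam the GABP motif CCGGAAG (6.91% of windows) at -47 to -41, and a downstream start of Nrf1 the MEF2 core at -98 to -91. These are letter matches and were not tested for binding.

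Values are FPKM, expression values scaled to transcript length and to the mapped fragments of the library, as deposited, and tests were run with limma on log2(FPKM + 1) among genes whose mean over the compared libraries reached 0.5 FPKM, with Benjamini-Hochberg adjustment over all genes tested. A gene was called at an adjusted p under 0.05, and log2 fold changes are given ± SE. The study's own criterion, a log2 fold change of 1 or more in either direction with an unadjusted p under 0.05, was counted as well. Pearson correlations of log2(FPKM + 1) between libraries of the same group were 0.972 or higher. Those between groups were not computed. The recovered depth of the stress libraries was 14471542 to 23459146 reads, and the depth of the other libraries is unknown. Mlxipl went with the labels: it did not overlap between the compared groups in 6 of the 7 comparisons of genotype or vector, in SOL of chow-fed mice its levels were 43.8 to 64.1 FPKM in the F/F libraries and 30.0 to 46.1 FPKM in those of ChMKO mice. The deletion removes part of the gene, and reads over the rest still count.

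The 24 stress libraries fell into 2 clusters of 12 along the first principal component, which held 61.6% of the variance. Cluster A contained all 8 HFrD libraries with the Norm F/F libraries N_WTc397 and N_WTc401 and the Hypo F/F libraries H_WTc360 and H_WTc361, and cluster B contained the other 12. No label separates them. Titin (Ttn) measured 133 to 162 FPKM in cluster A and 21.2 to 43.0 FPKM in cluster B, and the difference between clusters rose with transcript length, from a median log2 difference of -0.40 in 718 genes under 1500 bases to 0.01 in 3464 genes of 6000 bases or more. Among the regulators, Ppargc1a differed by 1.18 on the log2 scale (7.29 to 23.2 FPKM in A, 2.74 to 6.55 FPKM in B), Esrrg by 0.83 and Nrip1 by 0.77, the other 7 lying between -0.35 and 0.25. The values of Ppargc1a did not overlap between clusters, which were cut along a component of these same libraries. How many of all genes separated in this way was not counted. Since all ChMKO mice on HFrD lay in A and all Norm ChMKO mice in B, diet and cluster cannot be told apart in that genotype.

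The first comparison asked how the regulators differed between a slow and a fast muscle of chow-fed mice. Estrogen-related receptors and Ppara were higher in SOL than in GC in both genotypes. In F/F mice, Esrrb was higher by 2.23 ± 0.24, Esrrg by 1.57 ± 0.30, Ppara by 1.31 ± 0.20, Esrra by 0.62 ± 0.08, Ppargc1b by 0.51 ± 0.13 and Nrf1 by 0.27 ± 0.06 on the log2 scale. These 6 of the 10 regulators were called by limma, against a background of 50.4% of 13235 genes called, and 3 of them passed the study's criterion against 7.99% of all genes. In ChMKO mice 7 of 10 were called, with 57.9% of 13080 genes called, and 4 passed the study's criterion against 7.83% of all genes. The muscles did not overlap for 4 regulators in F/F mice (Esrra, Esrrb, Ppara and Nrf1), where 35.9% of all genes tested did not, and for 6 in ChMKO mice (these, Ppargc1a and Esrrg), where 43.0% did not. The median log2 difference of all genes was 0.18 in F/F and 0.15 in ChMKO, and rescaling the libraries brought it to -0.005 and 0.001.

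**Figure D1:**
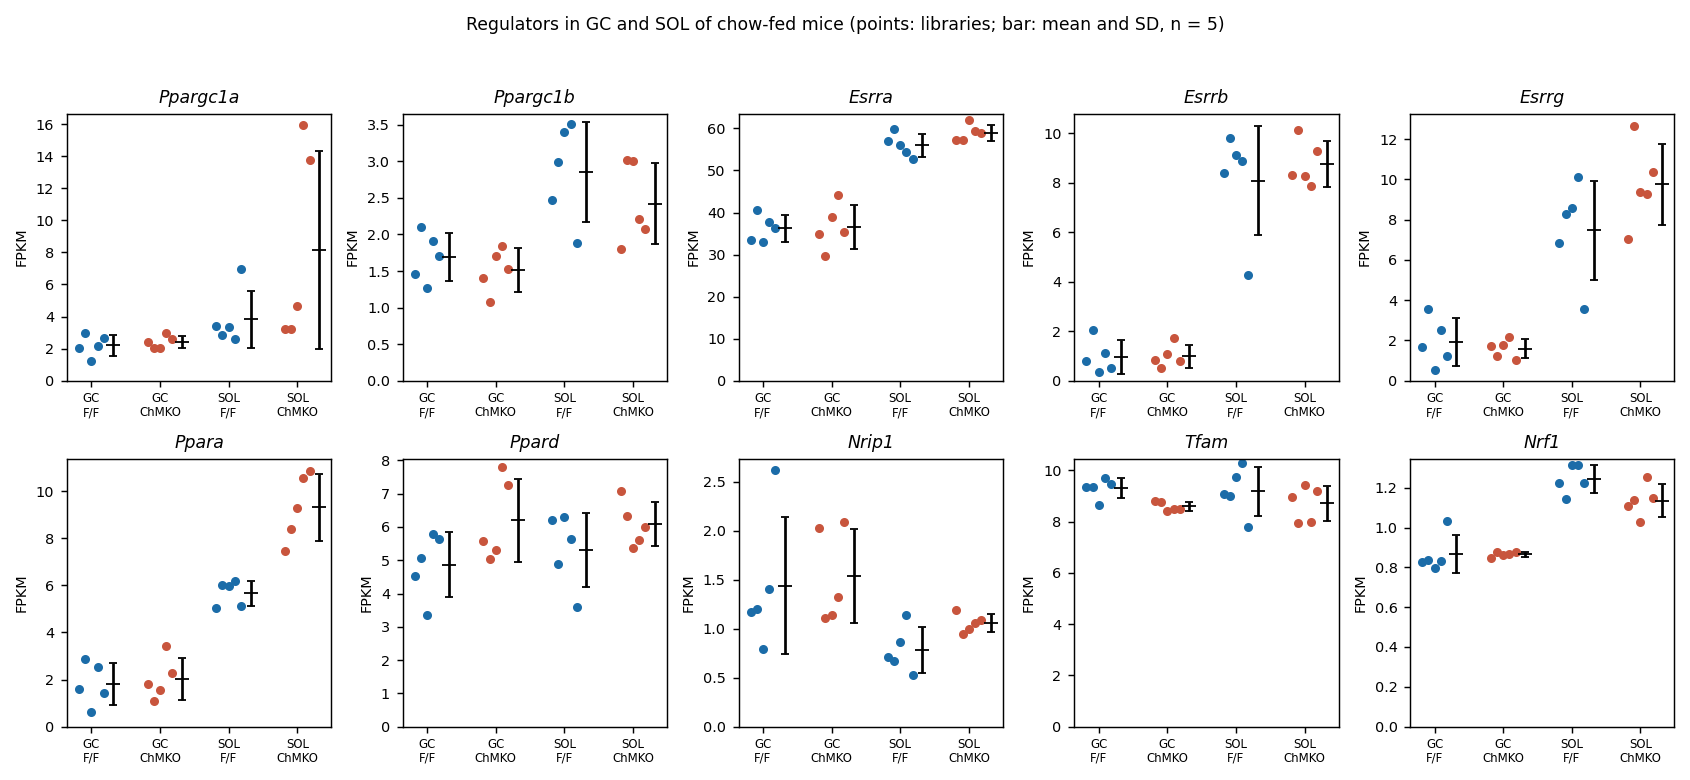
FPKM of the 10 regulators (y axis, 1 panel per gene) in GC and SOL of F/F (blue) and ChMKO (red) mice on chow, with 1 point per library and bars for the mean and SD of 5. Esrrb, Esrra, Ppara and Nrf1 did not overlap between the muscles in either genotype, beside 35.9% and 43.0% of all genes tested, and 2 SOL libraries of ChMKO mice reached 13.8 and 15.9 FPKM of Ppargc1a.

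Among the coactivators, Ppargc1a, the PGC-1alpha gene, measured 1.21, 2.03, 2.14, 2.64 and 2.99 FPKM in GC and 2.60, 2.83, 3.34, 3.42 and 6.96 FPKM in SOL of F/F mice. In ChMKO mice it measured 2.03, 2.04, 2.44, 2.63 and 2.95 FPKM in GC and 3.20, 3.21, 4.64, 13.8 and 15.9 FPKM in SOL. The muscles overlapped in F/F and not in ChMKO, where SOL of mice 72 and 74 stood far above the other 3. The log2 difference was 0.56 ± 0.22 in F/F (adjusted p = 0.0528) and 1.16 ± 0.38 in ChMKO (adjusted p = 0.0215). With the mouse as a block the F/F difference was called, with an adjusted p of 0.033, and without SOL of ChMKO mouse 74 the ChMKO difference was 0.92 with an adjusted p of 0.0506. Ppargc1b, the PGC-1beta gene, rose from 1.69 ± 0.334 to 2.85 ± 0.679 FPKM (mean ± SD, n = 5) in F/F and from 1.51 ± 0.296 to 2.42 ± 0.556 FPKM in ChMKO, with adjusted p-values of 0.00916 and 0.00849 by limma and overlapping libraries.

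Esrrb, an orphan nuclear receptor of the ERR class, measured 0.355, 0.496, 0.803, 1.13 and 2.04 FPKM in GC and 4.25, 8.38, 8.88, 9.10 and 9.82 FPKM in SOL of F/F mice. In ChMKO mice it measured 0.52, 0.792, 0.852, 1.06 and 1.74 FPKM in GC and 7.86, 8.27, 8.30, 9.29 and 10.1 FPKM in SOL. Every SOL library exceeded every GC library, and the lowest SOL library belonged to F/F mouse 71. The adjusted p of limma was 3.68e-05 in F/F and 1.15e-07 in ChMKO, where the log2 difference was 2.32 ± 0.14.

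Esrrg, whose product ERRgamma drives oxidative genes and vascular growth in muscle, measured 0.535, 1.25, 1.69, 2.53 and 3.58 FPKM in GC and 3.57, 6.82, 8.26, 8.59 and 10.1 FPKM in SOL of F/F mice. In ChMKO mice it measured 1.05, 1.22, 1.73, 1.79 and 2.17 FPKM in GC and 7.05, 9.29, 9.38, 10.4 and 12.7 FPKM in SOL. The muscles separated fully in ChMKO, and in F/F the lowest SOL library, of mouse 71, fell just below the highest GC library. Adjusted p-values were 0.00137 in F/F and 5.7e-07 in ChMKO (limma). Esrra, the ERR with the highest level here, measured 33.0 to 40.6 FPKM in GC and 52.6 to 59.9 FPKM in SOL of F/F mice, and 29.8 to 44.1 FPKM and 57.2 to 61.9 FPKM in ChMKO mice. No library overlapped between the muscles, and the log2 difference in ChMKO was 0.69 ± 0.09.

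Ppara, a receptor for fatty acids, measured 0.613, 1.43, 1.59, 2.52 and 2.89 FPKM in GC and 5.06, 5.14, 5.98, 6.01 and 6.19 FPKM in SOL of F/F mice. In ChMKO mice it measured 1.09, 1.56, 1.80, 2.27 and 3.42 FPKM in GC and 7.48, 8.42, 9.28, 10.6 and 10.9 FPKM in SOL. The muscles did not overlap in either genotype, and the log2 difference was 1.31 ± 0.20 (adjusted p = 0.000354) in F/F and 1.80 ± 0.18 (adjusted p = 5.87e-06) in ChMKO. Ppard, the PPAR that is found widely in muscle, was not called between muscles, with 3.35 to 5.79 FPKM in GC and 3.59 to 6.29 FPKM in SOL of F/F mice.

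Nrip1 gave log2 differences of -0.42 ± 0.17 in F/F (adjusted p = 0.0558) and -0.28 ± 0.11 in ChMKO (adjusted p = 0.0518), the latter being called with the mouse as a block (adjusted p = 0.032). It ranged from 0.791 to 2.63 FPKM in GC and from 0.529 to 1.14 FPKM in SOL of F/F mice, which overlapped. Tfam, which packages and transcribes mitochondrial DNA, gave -0.02 ± 0.08 and 0.01 on the log2 scale, with 9.30 ± 0.387 FPKM in GC and 9.18 ± 0.948 FPKM in SOL of F/F mice (SD, n = 5). Nrf1, a factor for nuclear genes of the respiratory chain, lay between 0.798 and 1.03 FPKM in GC and between 1.14 and 1.31 FPKM in SOL of F/F mice and was called in both genotypes. Under rescaling, Nrf1 was no longer called in either genotype (0.14 and 0.09), Ppargc1b was not called in ChMKO (0.31, adjusted p = 0.0656), and Nrip1 and Tfam were called lower in SOL in both genotypes (Tfam -0.25 and -0.17).

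Slow-fiber genes set the scale of the muscle difference. Myh7 was 15.0 ± 15.2 FPKM in GC and 1943 ± 208 FPKM in SOL of F/F mice (SD, n = 5), a log2 difference of 7.83 ± 0.81, and Tnni1 differed by 7.44 ± 0.49. The summed level of 7 slow-fiber genes was 69.9 to 766 FPKM in GC and 13366 to 21104 FPKM in SOL of F/F mice. Markers of other cells moved with the muscle too. All 5 endothelial markers were called higher in SOL in both genotypes (summed level 39.4 to 78.7 FPKM in GC and 117 to 208 FPKM in SOL of F/F mice, with none at 0), as were all 5 red blood cell markers. Smooth muscle markers were called higher for 3 of 4 tested in F/F and 4 of 4 in ChMKO mice (33.5 to 60.2 FPKM in GC and 77.3 to 172 FPKM in SOL of F/F mice). Brown adipocyte markers were called higher for 4 of 4 tested in F/F and 3 of 3 in ChMKO mice, with a summed level of 506 to 733 FPKM in GC and 1045 to 1630 FPKM in SOL of F/F mice. That list includes Cox7a1 and Cox8b, respiratory chain subunits that muscle expresses too. Schwann cell markers were called higher for 0 of 5 in F/F and 4 of 5 in ChMKO mice, and white adipocyte markers for 2 of 6 and 3 of 6. Fibroblast markers were called for 0 of 5 in both genotypes, and of 5 macrophage markers 0 were called in F/F and 1 was lower in ChMKO mice. All these counts stand beside 50.4% of all genes called in F/F and 57.9% in ChMKO mice. Their part in the differences of the regulators was not tested.

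Genes that work with or under the regulators were read from lists, beside the 50.4% of all genes called in F/F mice and the 57.9% called in ChMKO mice. Of 14 PPAR target genes tested in F/F mice, 12 were higher in SOL, with a median log2 difference of 1.26 against 0.18 over all genes, among them Fabp3, a fatty acid carrier (2.75 ± 0.26), Plin5, a lipid droplet protein (1.89 ± 0.20), and Acot1, an acyl-CoA thioesterase (1.83 ± 0.14). Of 15 PGC-1 and ERR target genes, 11 were higher and 1 lower, with a median of 0.50, among them myoglobin (Mb, 2.35 ± 0.22), the succinate dehydrogenase subunit Sdhb (0.98 ± 0.12) and the cytochrome oxidase subunit Cox5b (0.83 ± 0.12). Of 11 genes of mitochondrial DNA expression, 4 were higher and 0 lower, with a median of 0.16, such as Polg, the mitochondrial DNA polymerase (0.34 ± 0.07), and Mterf3 (0.34 ± 0.08). Of 19 partners, 7 were higher and 4 lower, with a median of 0.13. Perm1, a muscle regulator induced by PGC-1 and ERRs, was higher (1.50 ± 0.17), whereas the PPAR partners Rxrg (-1.40 ± 0.14) and Rxra (-0.80 ± 0.09) were lower. The called shares of the genes of mitochondrial DNA expression, 4 of 11, and of the partners, 11 of 19, lie below and near that of all genes.

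ChMKO mice gave a like account, in which 10 PPAR targets were higher and 1 lower of 14 (median 1.26 against 0.15 over all genes), 13 of 15 PGC-1 and ERR targets were higher and 0 lower (0.63), 7 of 11 genes of mitochondrial DNA expression were higher and 0 lower (0.25), which is near the 57.9% of all genes called, and 11 partners were higher and 7 lower of 19 (0.22). Lipoprotein lipase (Lpl) was higher by 3.07 ± 0.16, the fatty acid transporter Cd36 by 1.93 ± 0.10, the beta-oxidation enzyme Hadha by 1.33 ± 0.07 and the dehydrogenase Acadm by 1.34 ± 0.07. Perm1 was again higher (1.73 ± 0.13) and Rxra (-0.83 ± 0.07) and Rxrg (-1.47 ± 0.13) lower.

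The second comparison asked whether loss of ChREBP altered the regulators on chow. None of the 10 was called in GC, where 0.0236% of 12724 genes were called by limma, and 0 had an unadjusted p under 0.05 (589 of all genes). Tfam averaged 8.59 ± 0.173 FPKM in ChMKO libraries against 9.30 ± 0.387 FPKM in their controls (SD, n = 5), all 5 ChMKO libraries lying below the F/F median while the groups overlapped. Ppard had the lowest unadjusted p, 0.063, with a log2 difference of 0.30 ± 0.14 and 5.03 to 7.81 FPKM in ChMKO libraries against 3.35 to 5.79 FPKM.

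In SOL, 0 of 10 were called by limma against 0.0225% of 13348 genes, and 2 of 10 had an unadjusted p under 0.05 (1300 of all genes). Ppara was the regulator with the clearest separation: the SOL libraries of ChMKO mice (7.48 to 10.9 FPKM) lay above all those of F/F mice (5.06 to 6.19 FPKM), a separation that 2.05% of all genes tested showed in either direction. It averaged 9.32 ± 1.42 FPKM after loss of ChREBP against 5.68 ± 0.534 FPKM in controls (SD, n = 5), a log2 difference of 0.62 ± 0.10 with an adjusted p of 0.118, which ranged from 0.0628 to 0.318 over the alternatives. Nrip1 differed by 0.21 ± 0.09 (adjusted p = 0.478). Ppargc1a had a log2 difference of 0.71 ± 0.41 (adjusted p = 0.568), which was 0.42 without ChMKO mouse 72 and 0.47 without mouse 74, the high libraries named above. The difference of the genotype effect between the muscles was called for 0 of 10 regulators by limma, with 0 at an unadjusted p under 0.05, where 0.00759% of 13176 genes were called and 789 had an unadjusted p under 0.05. For Ppara that difference was 0.49 ± 0.27 (adjusted p = 0.815).

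**Figure D2:**
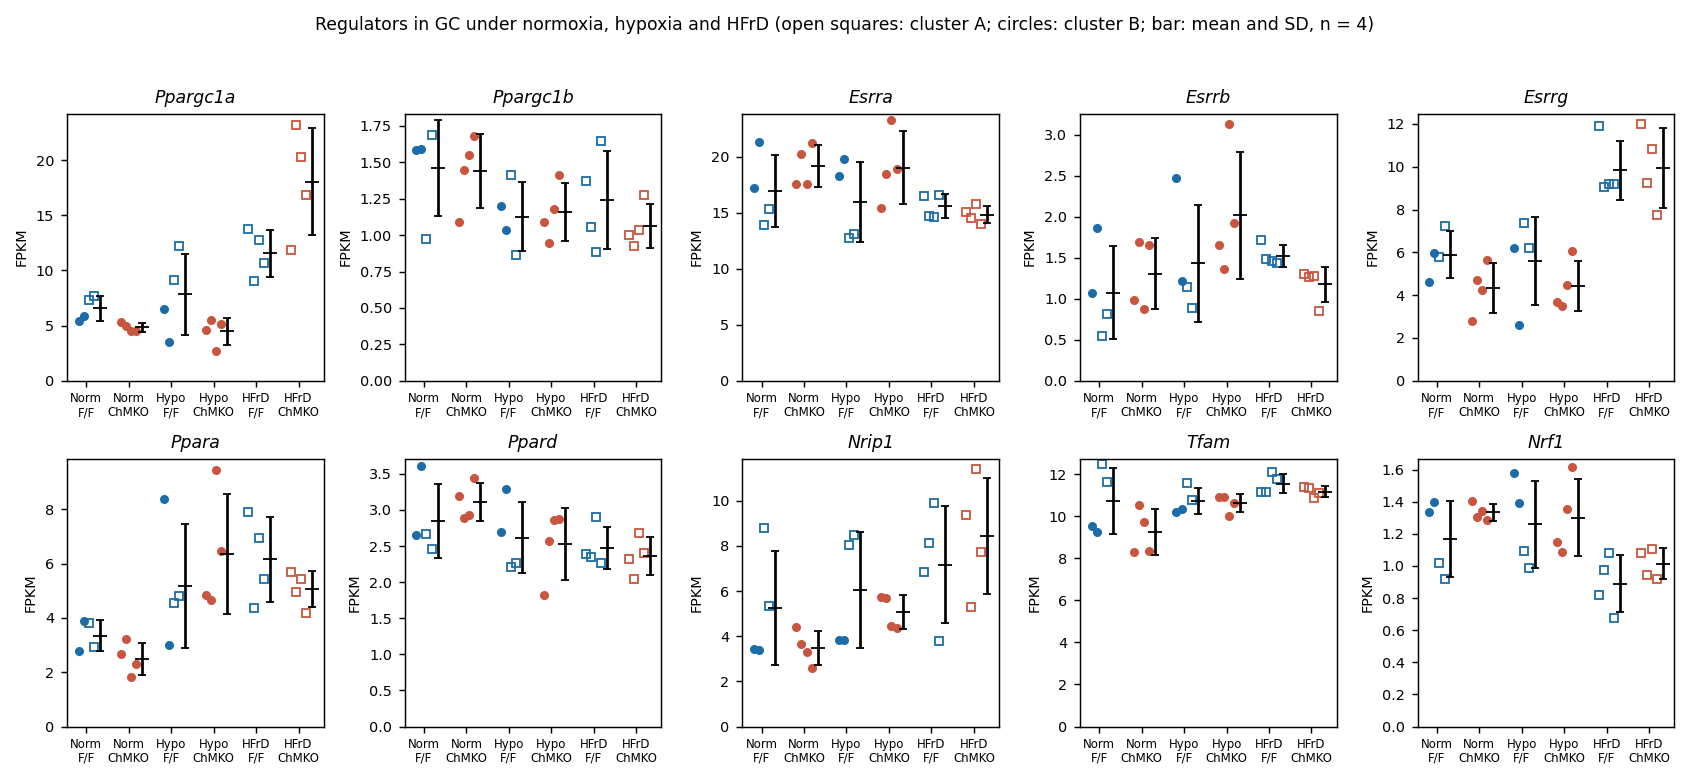
FPKM of the 10 regulators (y axis, 1 panel per gene) in GC of the 6 stress groups, with 1 point per library, open squares for cluster A and circles for cluster B, and bars for the mean and SD of 4. Ppargc1a reached 9.07 to 23.2 FPKM in the HFrD libraries, and within the F/F groups the squares lay above the circles for Ppargc1a.

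The third comparison asked how hypoxia changed the regulators in GC. Ppara rose in ChMKO mice, from 1.82, 2.29, 2.67 and 3.22 FPKM under Norm to 4.65, 4.85, 6.47 and 9.46 FPKM under Hypo. The groups did not overlap, and the log2 difference was 1.04 ± 0.20 with an adjusted p of 0.0425. It was the 1 regulator of 10 called, against 0.89% of 10676 genes, and the 1 of 10 that passed the study's criterion, against 1.00% of all genes. The call was lost when any 1 of 7 of the 8 libraries was left out (log2 difference 0.857 to 1.14, adjusted p 0.0670 to 0.119), where all genes called numbered from 10 to 104 against 95. Without H_KOc333 the call was kept (1.15, adjusted p = 0.0348, with 129 genes called). Ppard did not overlap between the groups either (2.88 to 3.44 FPKM under Norm and 1.82 to 2.87 FPKM under Hypo) but was not called, and 9.81% of all genes tested did not overlap. Nrip1 differed by 0.44 ± 0.14 (adjusted p = 0.165) and Esrrb by 0.38 ± 0.18 (adjusted p = 0.371).

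In F/F mice Ppara measured 2.8, 2.93, 3.81 and 3.87 FPKM under Norm and 2.99, 4.56, 4.81 and 8.37 FPKM under Hypo, which overlapped, and its log2 difference was 0.45 ± 0.24 (adjusted p = 1). Here 0 of 10 regulators were called by limma and 0 by voom on the recovered reads, 0 had an unadjusted p under 0.05, and 0% of 10740 genes were called, with 411 of all genes at an unadjusted p under 0.05. Ppargc1a of the same mice measured 3.55 and 6.55 FPKM in the Hypo libraries of cluster B and 9.12 and 12.2 FPKM in those of cluster A, so that its spread followed the cluster. The difference of the hypoxia effect between genotypes was 0.59 ± 0.33 for Ppara (adjusted p = 1), and 0 of 10 regulators and 0% of 10751 genes were called for that difference by limma, with 0 regulators and 132 genes at an unadjusted p under 0.05.

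Myh7 moved from 0.930, 3.16, 5.14 and 12.3 FPKM under Norm to 9.13, 22.7, 25.5 and 53.7 FPKM under Hypo in F/F mice. In ChMKO mice it moved from 0.289, 0.459, 7.90 and 11.5 FPKM to 6.36, 19.9, 38.6 and 68.3 FPKM. The groups overlapped in both genotypes, and its log2 differences, 2.26 ± 0.64 (adjusted p = 1) and 2.75 ± 0.84 (adjusted p = 0.165), were not called. Tnni1 gave 2.29 ± 0.65 and 2.55 ± 0.73 (adjusted p = 0.146 in ChMKO). In the list of 7 slow-fiber genes 0 were called in either genotype. No gene of the 4 pathway lists was called in either genotype, with medians in ChMKO of 0.03 for PPAR targets, 0.01 for PGC-1 and ERR targets, -0.08 for mitochondrial DNA expression and -0.02 for partners, against -0.03 over all genes. No cell type marker was called either, though summed skeletal muscle markers in ChMKO mice did not overlap (33716 to 40241 FPKM under Norm and 40693 to 46623 FPKM under Hypo), and list medians there were 0.90 for red blood cells and -0.41 for fibroblasts. Their part in the difference of Ppara was not tested.

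The fourth comparison asked how the fructose diet changed the regulators in GC. In F/F mice Ppargc1a measured 5.39, 5.85, 7.29 and 7.67 FPKM under Norm, the higher pair being libraries N_WTc397 and N_WTc401 of cluster A, and 9.07, 10.6, 12.7 and 13.8 FPKM under HFrD. Esrrg measured 4.60, 5.77, 5.98 and 7.24 FPKM under Norm and 9.04, 9.18, 9.20 and 11.9 FPKM under HFrD. Ppara measured 4.36, 5.42, 6.95 and 7.90 FPKM under HFrD against at most 3.87 FPKM under Norm. These 3 were the regulators that did not overlap between the diets, where 16.2% of all genes tested did not, with log2 differences of 0.73 ± 0.15, 0.66 ± 0.13 and 0.70 ± 0.17, each at an adjusted p of 0.145. By limma 0 of 10 regulators were called and by voom 0, 3 of 10 had an unadjusted p under 0.05, and 0% of 10707 genes were called, with 2531 at an unadjusted p under 0.05.

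The cluster mattered here. Against N_WTc397 and N_WTc401, the Norm F/F libraries of the same cluster, Ppargc1a differed by 0.55 ± 0.14 (adjusted p = 0.106), Esrrg by 0.53 ± 0.12 (adjusted p = 0.0900) and Ppara by 0.69 ± 0.19 (adjusted p = 0.123), Esrrb was called (0.59 ± 0.09, adjusted p = 0.0390), and 99 of 10599 genes were called. Against the other pair of Norm F/F libraries, of cluster B, 7 of 10 regulators and 5927 of 10713 genes were called, with Ppargc1a at 0.91 ± 0.15, Esrrg at 0.78 ± 0.13 and Nrip1 at 0.82 ± 0.29. Within cluster A, Nrip1 gave -0.01 ± 0.31 and Tfam -0.06 ± 0.06. Myh7 and Tnni1 were called within cluster A, by 2.13 ± 0.19 (adjusted p = 0.0047) and 1.89 ± 0.11 (adjusted p = 0.00064), and not over all 8 libraries (2.12 ± 0.49, adjusted p = 0.145, and 1.74 ± 0.45, adjusted p = 0.148). No cell type marker was called in F/F mice, but several lists lay lower under HFrD. Their summed levels did not overlap for fibroblasts (171 to 379 FPKM under Norm, 124 to 143 FPKM under HFrD), macrophages (16.2 to 46.8 and 11.2 to 15.5 FPKM), red blood cells (103 to 387 and 76.2 to 99.1 FPKM) and skeletal muscle (24419 to 34690 and 21968 to 23370 FPKM), with list medians of -0.85, -0.68, -0.90 and -0.34. Their part was not tested.

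In ChMKO mice the diet comparison called 9 of 10 regulators, against 64.0% of 10733 genes, and 3 passed the study's criterion against 5.06% of all genes. Ppargc1a measured 4.48, 4.54, 4.97 and 5.35 FPKM under Norm and 11.9, 16.8, 20.3 and 23.2 FPKM under HFrD. Esrrg measured 2.79, 4.22, 4.71 and 5.62 FPKM under Norm and 7.72, 9.26, 10.8 and 12.0 FPKM under HFrD, and Nrip1 2.61, 3.32, 3.65 and 4.39 FPKM and 5.29, 7.73, 9.36 and 11.4 FPKM. None of the 3 overlapped between the diets, which here are also the clusters, and 57.2% of all genes tested did not overlap either. The log2 differences were 1.67 ± 0.17 for Ppargc1a (adjusted p = 3.63e-05), 1.05 ± 0.18 for Esrrg (adjusted p = 0.0007), 1.04 ± 0.20 for Nrip1 (adjusted p = 0.00147), 0.80 ± 0.13 for Ppara (adjusted p = 0.000503) and 0.26 ± 0.07 for Tfam (adjusted p = 0.0142).

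Esrra (-0.34 ± 0.07), Ppard (-0.29 ± 0.07), Ppargc1b (-0.24 ± 0.09) and Nrf1 (-0.21 ± 0.06) were called lower in that comparison, beside a median of all genes of -0.17. After rescaling, which moved that median to -0.035, these 4 were no longer called (-0.17, -0.15, -0.14 and -0.11), while the 5 that rose stayed called. Over all alternatives the Ppargc1b call was lost in 9 of 13 refits (adjusted p up to 0.221 by limma). Those of Esrra, Ppard and Nrf1 were lost in 1 of 14, 1 of 13 and 2 of 13. Esrrb was not called (-0.07 ± 0.14). Myh7 rose by 2.36 ± 0.78 (adjusted p = 0.0239) and Tnni1 differed by 1.41 ± 0.66 (adjusted p = 0.0857), and 2 of 7 slow-fiber genes were called.

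Counts of related genes in this comparison stand beside the 64.0% of all genes called and their median of -0.17. Of 15 PGC-1 and ERR targets, 1 was higher and 10 lower, with a median of -0.42, among them the glucose transporter Slc2a4 (-0.72 ± 0.04) and the ATP synthase subunit Atp5b (-0.48 ± 0.05). Of 14 PPAR targets, 4 were higher and 1 lower, with a median of 0.30, among them Lpl (1.36 ± 0.17), the uncoupling protein Ucp3 (1.02 ± 0.26) and Cd36 (0.48 ± 0.13). Of 10 genes of mitochondrial DNA expression 3 were higher and 3 lower, the helicase Twnk falling by 0.51 ± 0.06 and the transcription factor Tfb2m rising by 0.45 ± 0.06. Of 19 partners 6 were higher, including Mef2a (0.84 ± 0.05), Gabpa (0.71 ± 0.07) and the corepressor Ncor1 (0.58 ± 0.05), and 6 lower. The called shares of these last lists, 6 of 10 and 12 of 19, lie near that of all genes. All 5 endothelial and all 5 red blood cell markers were called lower (endothelial sum 81.3 to 92.9 FPKM under Norm and 43.0 to 50.1 FPKM under HFrD, none at 0), as were 4 of 5 fibroblast and 4 of 5 macrophage markers. Skeletal muscle markers were lower as well, 4 of 5 called lower and 1 higher, with a median of -0.67 and a summed level of 33716 to 40241 FPKM under Norm and 22178 to 23194 FPKM under HFrD. The part of these markers in the differences of the regulators was not tested.

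Genotype was compared within each stress group as well, where 0 of 10 regulators were called by limma and 0 by voom in each. Under Norm, 0.00922% of 10848 genes were called (1207 at an unadjusted p under 0.05). Ppargc1a, at 4.48 to 5.35 FPKM in ChMKO and 5.39 to 7.67 FPKM in F/F, did not overlap, where 4.96% of all genes tested did not (-0.36 ± 0.12, adjusted p = 0.419), and with the cluster as a covariate its difference was -0.18 (adjusted p = 0.98). Under Hypo, 0.00941% of 10628 genes were called (560 at an unadjusted p under 0.05), and Ppargc1a gave -0.61 ± 0.31 (adjusted p = 0.532), which was -0.12 ± 0.25 (adjusted p = 1.00) with the cluster as a covariate. Under HFrD, where both genotypes lay in cluster A, 0.0190% of 10515 genes were called (774 at an unadjusted p under 0.05). Ppargc1a there gave 0.58 ± 0.19 (adjusted p = 0.607), with 18.0 ± 4.87 FPKM in ChMKO and 11.6 ± 2.11 FPKM in F/F (SD, n = 4), and Esrrb gave -0.22 ± 0.08 (adjusted p = 0.642) with 1.17 ± 0.216 and 1.52 ± 0.131 FPKM. The Esrrb libraries did not overlap between genotypes, as was true of 4.47% of all genes tested, and those of Ppargc1a did. Members with an unadjusted p under 0.05 numbered 1 under Norm, 0 under Hypo and 2 under HFrD. These counts moved with single libraries, to 3 under Norm without N_WTc368 or N_WTc369 and to 2 under Hypo without H_WTc348. With the cluster as a covariate, genes at an unadjusted p under 0.05 numbered 380 under Norm and 126 under Hypo, with 0 and 1 regulators among them. As each library was left out, such genes reached 3601 under Norm (without N_WTc369) and numbered fewer than 380 without N_WTc397 or without N_WTc401. Under Hypo they ran from 131 (without H_WTc361) to 2324 (without H_WTc341).

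The difference of the diet effect between genotypes was 0.94 ± 0.24 for Ppargc1a (unadjusted p = 0.0013, adjusted p = 0.451 by limma). For that difference 0 of 10 regulators and 0% of 10734 genes were called by limma, with 1 regulator and 1107 genes at an unadjusted p under 0.05. Of the Norm libraries, 2 of 4 in F/F and 0 of 4 in ChMKO lay in cluster A, and the part of the cluster in this difference was not tested. Set against Norm libraries of cluster B alone, Ppargc1a was higher on the diet by 1.67 ± 0.17 in ChMKO and by 0.91 ± 0.15 in F/F, 2 values that were not compared by a test.

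**Figure D3:**
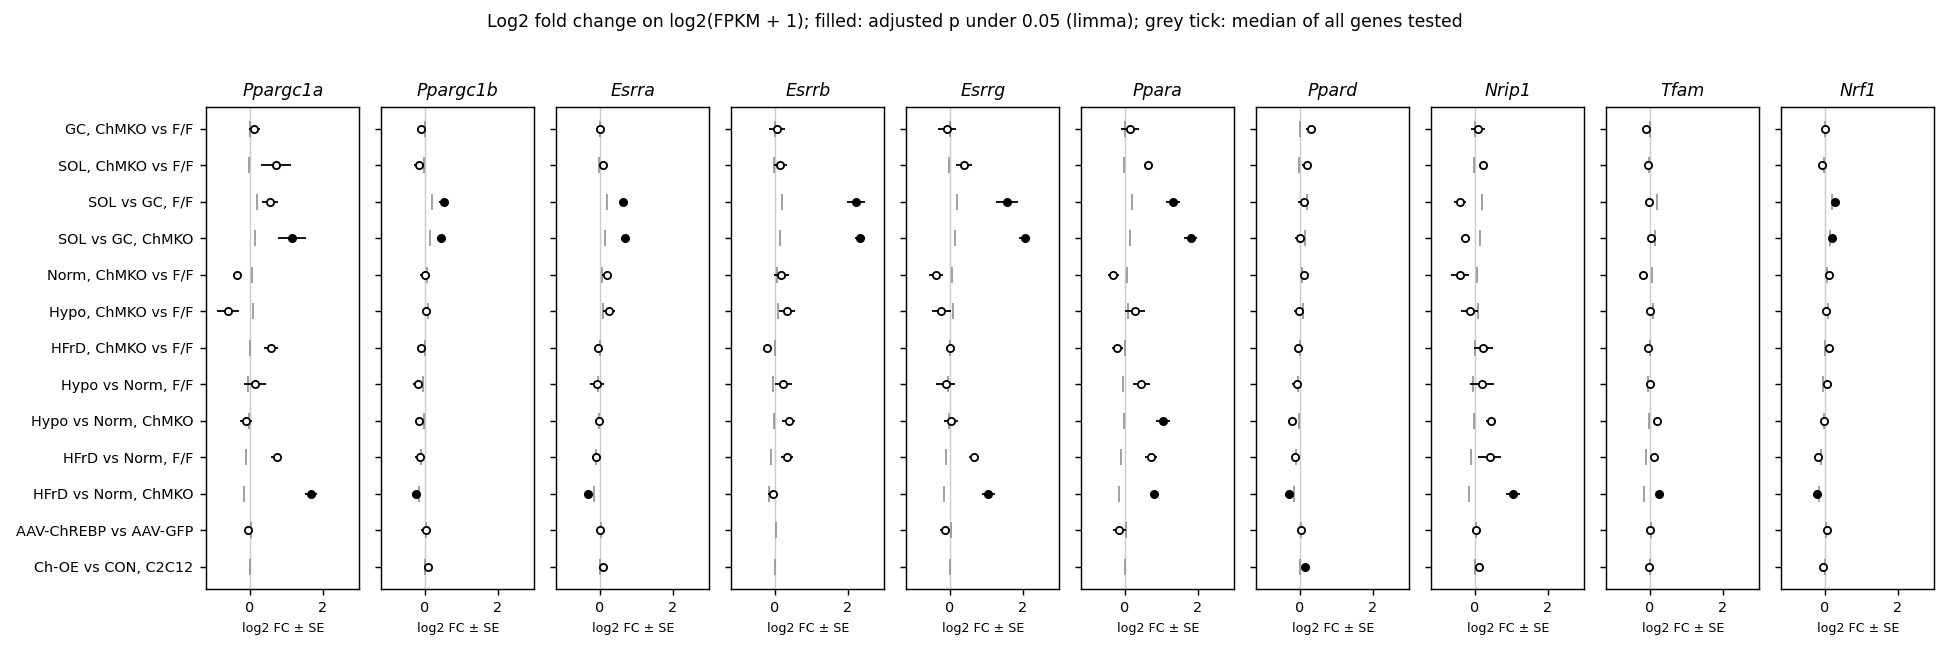
Log2 fold change of each regulator (x axis, on log2(FPKM + 1), ± SE) in 13 comparisons (y axis), filled where the adjusted p of limma was under 0.05, with a grey tick at the median of all genes tested. Filled points lie in SOL against GC, in HFrD against Norm of ChMKO mice, at Ppara in Hypo against Norm of ChMKO mice and at Ppard in C2C12.

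Levels of the regulators were next set against those of the slow-fiber genes, library by library. In all, 196 relations of log2 values were tested, those of 10 regulators (9 in the AAV table, where Esrrb was below the filter) with Myh7 and Tnni1, within muscles, within clusters and after subtracting group means. Of these, 30 had an adjusted p under 0.05, all positive, in a permutation test with 100000 resamples, and 22 by Spearman's rho. The points of each relation share a library and its depth.

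Esrrb and Ppara went with the slow-fiber genes in the stress GC. Within cluster B (12 libraries), Esrrb and Myh7 had r = 0.87 and rho = 0.89 (permutation p = 0.00029, adjusted p = 0.00812), with r = 0.79 without the 2 libraries farthest from the median of Myh7, and Esrrb and Tnni1 had r = 0.88 and rho = 0.83 (permutation p = 0.00018, adjusted p = 0.00588). Ppara and Myh7 had r = 0.83 and rho = 0.81 (permutation p = 0.00151, adjusted p = 0.0193), with r = 0.77 without the 2 farthest. These and Ppara with Tnni1 were the 4 of 20 relations past the threshold in that cluster. Within cluster A (12 libraries), Esrrb (r = 0.75, rho = 0.55, permutation p = 0.00719, adjusted p = 0.0499, and 0.0525 with a pseudocount of 0.1) and Ppara (r = 0.74, rho = 0.59, permutation p = 0.00516, adjusted p = 0.0437) passed with Myh7, and fell to r = 0.49 and 0.40 without the 2 farthest libraries, so these relations rested on those libraries.

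After subtracting the mean of each of the 6 groups (24 libraries), Esrrg too went with Myh7 (r = 0.70, rho = 0.69, permutation p = 0.00063, adjusted p = 0.0129) and with Tnni1 (r = 0.64, adjusted p = 0.0499 by permutation). After rescaling, Esrrg with Tnni1 was no longer past the threshold (adjusted permutation p = 0.0981). Centred in the same way, Esrrb gave r = 0.67 with Myh7 and 0.76 with Tnni1, and Ppara gave 0.62 and 0.65, with adjusted permutation p-values of 0.0489, 0.0194, 0.0259 and 0.0259. Esrrb with Myh7 did not pass with a pseudocount of 0.1 (adjusted permutation p = 0.0712) or after rescaling (0.0667). Centring by group and cluster, chosen after seeing the data among 38 added relations of which 5 passed, gave r = 0.79 and 0.81 for Esrrg and 0.82 and 0.84 for Esrrb (adjusted permutation p = 0.0165, 0.0165, 0.0435 and 0.0435), and 0.62 and 0.65 for Ppara, which did not pass (0.0633 and 0.0696). Ppargc1a did not pass in these libraries, with group-centred r = 0.03 with Myh7 and -0.07 with Tnni1 (permutation p = 0.900 and 0.777).

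**Figure D4:**
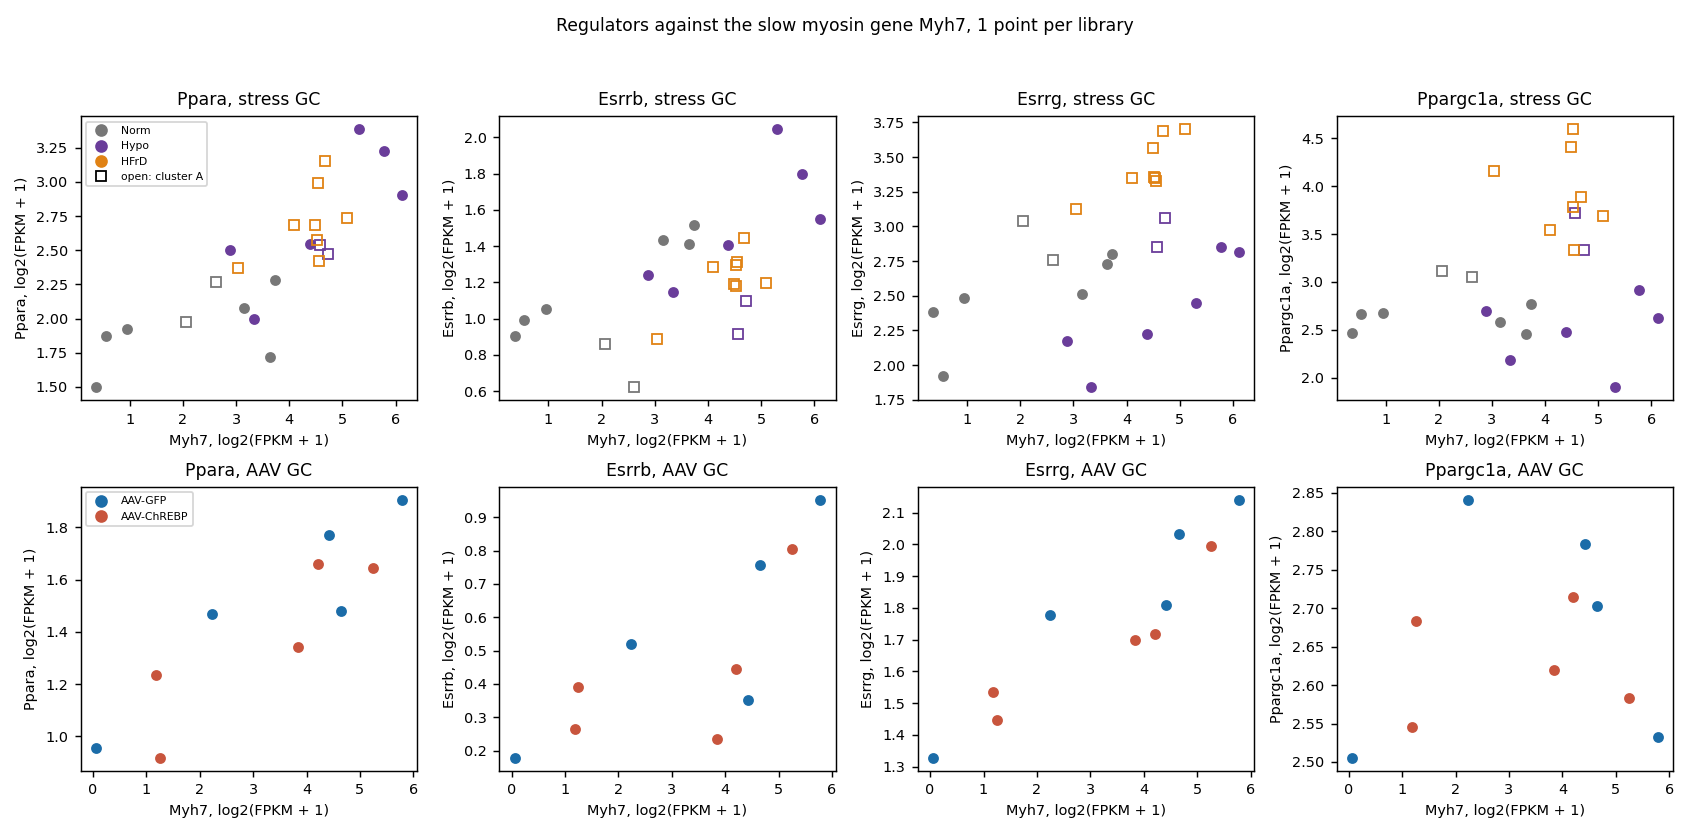
Levels of Ppara, Esrrb, Esrrg and Ppargc1a (y axis, log2(FPKM + 1)) against Myh7 (x axis, log2(FPKM + 1)), 1 point per library, for the stress GC (top, open squares for cluster A) and the AAV GC (bottom). Ppara climbs with Myh7 in both rows, Esrrg splits by cluster in the top row, and Ppargc1a follows the cluster rather than Myh7.

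Same-numbered libraries of the 2 AAV vectors deviated together, with correlations of 0.211 to 0.49, so that the 10 libraries are not fully independent and the permutation p-values, which treat them as such, may be too small. Myh7 spread from 0.0420 to 54.0 FPKM in AAV-GFP muscle and from 1.27 to 37.1 FPKM in AAV-ChREBP muscle. Esrrg followed it with r = 0.92 and rho = 0.94 (permutation p = 0.00014, adjusted p = 0.00588), and r = 0.86 without the 2 farthest libraries. Ppara followed it with r = 0.89 and rho = 0.85 (permutation p = 0.00074, adjusted p = 0.0132), and r = 0.85 without those 2. Nrf1 (r = 0.84, adjusted p = 0.0305) and Esrra (r = 0.78, adjusted p = 0.0437) passed in the permutation test as well, Esrra not after centring by vector, nor with a pseudocount of 0.1 (adjusted p = 0.0563) or after rescaling (0.0667). Ppargc1a had r = 0.13 with Myh7 (permutation p = 0.716). Relations without the libraries numbered 7 and 8 were among the 38 added after seeing the data. They leave 6 libraries, whose numbers 1, 3 and 4 still deviated together (0.455, 0.211 and 0.245), which the permutation did not take into account. There Esrra passed with Myh7 (r = 0.95, exact permutation p = 0.00139, adjusted p = 0.0176) and not with Tnni1 (r = 0.86, adjusted p = 0.0633). With Myh7, Esrrg (r = 0.91, adjusted p = 0.0616), Nrf1 (r = 0.87, adjusted p = 0.0633) and Ppara (r = 0.78, adjusted p = 0.190) did not pass.

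On chow, none of the 40 relations in GC and none of the 40 in SOL passed the permutation test. In GC all 40 correlations were positive (r from 0.15 to 0.78), Ppara reaching r = 0.63 and rho = 0.56 with Myh7 (permutation p = 0.0510, adjusted p = 0.184), which was 0.30 without the 2 farthest libraries. Ppargc1a there had r = 0.62 and rho = 0.68 with Myh7 (permutation p = 0.0467, adjusted p = 0.176), and group-centred r = 0.72 and rho = 0.82 with Tnni1 (permutation p = 0.0236 and 0.0115, adjusted p = 0.113 and 0.0778), with r = 0.36 and 0.53 without the 2 farthest. In SOL, where Myh7 spans 1757 to 2267 FPKM in F/F mice, Esrrb, Esrrg and Ppara had r of 0.18, 0.10 and -0.25 with Myh7 (permutation p = 0.635, 0.771 and 0.488). With Tnni1 the same 3 had r of -0.72, -0.66 and -0.51 (permutation p = 0.082, 0.0662 and 0.126, adjusted p = 0.243, 0.213 and 0.305), and without the 2 farthest libraries these were 0.62, -0.08 and -0.21. Esrra had r = -0.745 and rho = -0.53 with Tnni1 (permutation p = 0.0112, adjusted p = 0.0687), and r = 0.0078 without those 2, so that it rested on them. Ppargc1a went the other way in SOL than in GC. With Myh7 it had r = -0.52 and rho = -0.68 there (permutation p = 0.0977 and 0.0348, adjusted p = 0.257 and 0.162). Without the 2 libraries farthest for Myh7 its r was -0.40, and with Tnni1 its r was -0.05 (permutation p = 0.89).

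Over the 24 stress libraries, the genes with the profile most like that of Esrrb among 10717 were Ldhb, the heart-type lactate dehydrogenase subunit (r = 0.92, and 0.87 and 0.93 within clusters A and B), Barx2 (0.90), Perm1 (0.90, and 0.84 and 0.90 within clusters) and Idh2, a mitochondrial isocitrate dehydrogenase (0.89). For Esrrg they were Npepps (0.92, and 0.83 and 0.80 within clusters) and Lpl (0.90, and 0.76 and 0.63). For Ppargc1a they were the thyroid hormone receptor Thrb (0.91, and 0.61 and 0.76 within clusters) and Impact (0.91, and 0.90 and 0.24). These likenesses are descriptions over libraries that share depth and cluster, and the values of Esrrb held within both clusters while that of Impact did not.

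The last comparisons asked what added ChREBP did. In AAV muscle, Mlxipl rose from 10.3 to 12.3 FPKM in AAV-GFP to 52.9 to 101 FPKM in AAV-ChREBP (log2 difference 2.74 ± 0.14), and 0 of the 9 regulators tested were called by limma, with 0 at an unadjusted p under 0.05, where 0.00904% of 11058 genes were called and 322 had an unadjusted p under 0.05. Ppargc1a measured 4.68, 4.79, 5.51, 5.88 and 6.17 FPKM with AAV-GFP and 4.84, 4.99, 5.14, 5.42 and 5.56 FPKM with AAV-ChREBP. Esrrg measured 1.51, 2.43, 2.51, 3.10 and 3.41 FPKM and 1.73, 1.90, 2.25, 2.29 and 2.98 FPKM. Both overlapped, with log2 differences of -0.04 ± 0.08 and -0.14 ± 0.15. Ppara gave -0.16 ± 0.18, with 0.941 to 2.75 FPKM and 0.891 to 2.16 FPKM. Esrrb, at 0.132 to 0.936 FPKM with AAV-GFP, had a mean under the filter and was not tested. Nrip1 stood at 11.8 ± 1.99 FPKM with AAV-GFP (SD, n = 5), and 12.1 ± 2.15 FPKM with AAV-ChREBP.

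In C2C12 cells at day 7, Ppard rose with ChREBP, from between 13.8 and 14.1 FPKM in the 4 CON wells to 14.7, 15.5, 15.6 and 15.8 FPKM in Ch-OE. The wells did not overlap, which held for this 1 of 6 regulators and for 31.3% of all genes tested, and the log2 difference was 0.13 ± 0.03 (adjusted p = 0.0145 by limma). It was the 1 regulator called of 6 tested, against 30.5% of 11971 genes, and 0 passed the study's criterion. Esrra differed by 0.09 ± 0.04 (adjusted p = 0.141), from 15.8 ± 0.558 to 16.9 ± 0.974 FPKM (SD, n = 4), Nrip1 by 0.10 (adjusted p = 0.245) and Ppargc1b by 0.08 (adjusted p = 0.354). Tfam and Nrf1 gave -0.03 and -0.05.

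Ppargc1a, at 0.07 to 0.26 FPKM in CON and 0.13 to 0.26 FPKM in Ch-OE, was under the filter in these cells, as were Esrrb, Esrrg and Ppara, none above 0.13 FPKM in any well. Esrrg measured 0, 0, 0.01 and 0.01 FPKM in CON and 0.04, 0.04, 0.08 and 0.11 FPKM in Ch-OE, levels too low for a fold change. Of 6 slow-fiber genes tested 4 were higher and 1, the calcium pump gene Atp2a2, lower (-0.17 ± 0.02), Tnni1 rising by 0.50 ± 0.03 (adjusted p = 1.31e-06) and Myh7 by 0.27 ± 0.06 (adjusted p = 0.00776). Beside the 30.5% of all genes called, 7 of 12 PPAR targets were called, 4 higher and 3 lower, Cd36 rising by 0.55 ± 0.06 and Angptl4, an inhibitor of lipoprotein lipase, falling by 0.65 ± 0.03. Of 14 PGC-1 and ERR targets 3 were higher and 1 lower, Mb rising by 0.28 ± 0.04 and Vegfa falling by 0.19 ± 0.02. Of 17 partners 2 were higher and 3 lower, including Mef2c (0.49 ± 0.06) and Rxra (-0.26 ± 0.04), and of 12 genes of mitochondrial DNA expression 0 were called by limma (1, Twnk, with an unadjusted p under 0.05). Markers of cell types moved with ChREBP too. Of the skeletal muscle markers 4 of 5 were higher in Ch-OE (median 0.39, summed level 1391 to 1440 FPKM in CON and 1832 to 1908 FPKM in Ch-OE), of the smooth muscle markers 3 of 3 (median 2.72, 389 to 411 and 714 to 737 FPKM), and of the fibroblast markers 4 of 5 were lower (median -0.28, 2957 to 3073 and 2673 to 2857 FPKM). Their part was not tested.

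Read across the groups, the regulators kept different orders. Ppargc1a was lowest in C2C12 (0.138 ± 0.0873 FPKM in CON) and averaged at most 2.42 ± 0.394 FPKM in chow GC. In SOL it was 3.83 ± 1.78 FPKM in the F/F group and 8.15 ± 6.19 FPKM after the deletion (ChMKO), where the median was 4.64 FPKM and 2 libraries lay far above it. It was 5.19 ± 0.299 to 5.41 ± 0.658 FPKM in the AAV experiment, between 4.49 ± 1.23 and 7.85 ± 3.68 FPKM under Norm and Hypo, and 11.6 ± 2.11 and 18.0 ± 4.87 FPKM under HFrD. Ppara was between 1.81 ± 0.908 and 2.03 ± 0.890 FPKM in chow GC, 5.18 ± 2.27 and 6.36 ± 2.22 FPKM under Hypo, 5.06 ± 0.660 and 6.16 ± 1.58 FPKM under HFrD, and 5.68 ± 0.534 and 9.32 ± 1.42 FPKM in SOL, where the Hypo and HFrD groups lay within each other's spread. Esrrb was between 8.09 ± 2.21 and 8.77 ± 0.930 FPKM in SOL and at most 2.02 ± 0.776 FPKM in any GC group. Tfam stayed within 7.78 to 14.6 FPKM in all 62 libraries. The tables were made separately, so that an order across them is a description only.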

How the data were processed

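TRIzol-extracted RNA was run on a NovaSeq, and the reads were processed by the authors with fastp 0.18.0, HISAT2 2.1.0, StringTie 1.3.1, Bowtie2 2.2.8 and RSEM per the submitters' processing notes. The authors deposited FPKM per gene in 4 tables. In the AAV and C2C12 tables the unit was read from the values, and the AAV table also holds the authors' own fold changes and p-values, which were not used. Where a symbol had several entries, the entry with the highest mean was kept, as for Ppard, which had 2 entries in the chow table. In the stress table whole reads were recovered (at least 99.87% of nonzero values within 0.02 of a whole number). Columns matched to no sample numbered 0.

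Tests were run with limma 3.58.1 in R 4.3.3 on log2(FPKM + 1), with a trended prior, among genes averaging 0.5 FPKM or more, and permutation tests with numpy 2.4.6 in Python 3.11.15, all two-sided. The limma fit was tested on simulated data. The study's own test used counts, and whole reads were used here only as recovered from the stress table. Alternatives were a pseudocount of 0.1, no filter or a filter at 5 FPKM, rescaling by median ratios, all groups in 1 fit, voom on recovered reads, a replicate block, and each library left out.

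Numbers shared between GC and SOL titles were taken to mark the same mouse, and the mouse block rests on this reading. Same-numbered libraries there had correlations of deviations from -0.0169 to 0.322 in F/F and from 0.021 to 0.0492 in ChMKO. Same-numbered libraries went together in the AAV experiment (0.211 to 0.49), and not in C2C12 (-0.0938 to 0.176). For F/F mouse 69 the SOL library's title and column disagree on the number. Lists held 19 partners, 12 genes of mitochondrial DNA expression, 15 PPAR targets and 15 PGC-1 and ERR targets, besides cell type markers. Members and lists were chosen with earlier results of these data known. Genes like a member were the 5 with the highest Pearson r over the stress libraries.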

Additional observations from a re-analysis of the deposited data

Results flagged for a closer look

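In 130 combinations of a gene and a group of 4 or 5 libraries, 6 held a library that stood apart from the others by Dixon's ratio of its gap to the range of the group, about as many as chance gives at the 95% level. In SOL of F/F mice, mouse 71 was the highest for Ppargc1a (6.96 FPKM against 2.60 to 3.42 in the others, ratio 0.741) and the lowest for Esrrb (4.25 FPKM against 8.38 to 9.82, ratio 0.803). In GC the same mouse was the highest for Nrf1 (1.03 FPKM against 0.798 to 0.839, ratio 0.819). Ppargc1b was lowest in N_WTc397, a Norm F/F library of cluster A (0.971 FPKM against 1.59 to 1.69, ratio 0.876). Esrrb was lowest in KO_C309 of the HFrD ChMKO group (0.850 FPKM against 1.27 or more, ratio 0.941), and Esrrg was highest in WT_C292 of the HFrD F/F group (11.9 FPKM against 9.04 to 9.20, ratio 0.937).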

How the results depend on the processing

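The 24 calls of regulators kept their direction in every refit under the alternatives, 26 refits lost the threshold, and 15 calls kept it throughout. With a filter at 5 FPKM the regulators called numbered 1 in SOL against GC of F/F, 4 in that of ChMKO, 0 in Hypo against Norm of ChMKO and 5 in HFrD against Norm of ChMKO, since fewer regulators were tested. Without a filter they numbered 0 in Hypo against Norm of ChMKO (6 of all genes called against 95) and 2 in C2C12. Rescaling gave 5 in HFrD against Norm of ChMKO. Leaving out each library gave 6 to 8 in SOL against GC of either genotype, 0 to 1 in Hypo against Norm of ChMKO and 8 to 9 in HFrD against Norm of ChMKO, while all genes called numbered 5848 to 6780 and 6941 to 7469 in SOL against GC of F/F and ChMKO, 10 to 129 in Hypo and 6259 to 6644 in HFrD against Norm of ChMKO. Genes past the study's criterion depended on the pseudocount, 0.1 giving 1950 against 1058 and 1720 against 1024 in SOL against GC of F/F and ChMKO, 200 against 107 in Hypo and 1061 against 543 in HFrD against Norm of ChMKO, and voom gave 212 and 1171 in the last 2. In HFrD against Norm of F/F, alternatives chosen after seeing the data gave 7 without N_WTc397 and N_WTc401 and 1 with only these as controls. All groups in 1 fit called 213 genes in Hypo against Norm of ChMKO and 220 in HFrD against Norm of F/F, where the fits of only the groups compared called 95 and 0. Leaving out N_WTc369 gave 8 genes in the latter. With the mouse or pair as a replicate block, 7 were called in SOL against GC of F/F, 8 in that of ChMKO and 0 in AAV. The numbers do not pair the C2C12 wells, where the block gave 1. The slow-fiber relations past the threshold numbered 25 of 196 with a pseudocount of 0.1 and 25 after rescaling, against 30. Low levels limit Esrrb, Esrrg, Ppara and Ppargc1a in C2C12, and depth is unknown outside the stress table.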
